A study of Homo sapiens with 10 samples.

Results

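SH-SY5Y cells that overexpressed the marmoset FOXP2 cDNA (cjaFOXP2) were compared with SH-SY5Y cells that carried the empty expression vector pcDNA3. SH-SY5Y is an established human neuroblastoma line of noradrenergic character that is widely used as a model of immature neurons. The comparison rests on 4 of the 10 libraries of the series, replicates A and B of each of the 2 conditions, which were chosen by their transfection labels. The remaining 6 libraries came from cells with the human (hsa), chimpanzee (ptr) or Rhesus monkey (mmu) FOXP2 cDNA in the same vector, 2 for each, and served to show where the marmoset condition differed from the other FOXP2 conditions. All conditions shared the vector backbone, nucleofection and selection with G418, to which pcDNA3 confers resistance. The cDNA is driven by the viral CMV promoter of pcDNA3, so its level does not follow the control of the endogenous gene. The labels call the replicates separate transfections, and p-values here measure the spread between transfections of 1 cell line. Polyadenylated RNA was sequenced, and a gene's value is the mean over its transcripts of BPKM, the bases mapped per kilobase of exon model scaled to all mapped bases of a library.

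FOXP2 is a transcription factor that binds DNA through a forkhead domain and represses most, though not all, of the genes known to respond to it. Carriers of disabling mutations develop a disorder of speech and language, and in neurons the protein has been tied to differentiation and neurite growth. FOXP2 is also expressed in dividing progenitor cells, and forkhead proteins of several families act on genes of the cell cycle. The marmoset protein is nearly identical in sequence to the proteins of the other primates studied.

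The libraries were alike in an estimate of relative depth, which ranged from 0.985 to 1.25 with pcDNA3 replicate A set to 1. It is the most common ratio to that library among transcripts near 0, a ratio that 9.47% to 14.1% of them shared. The number of genes above 0 BPKM was also alike, from 20200 to 20794. The 10 most abundant genes took 24.5% and 22.9% of the summed gene values in the cjaFOXP2 libraries, against 16.8% and 22.2% in the pcDNA3 libraries. Transcription factors that define noradrenergic cells were present throughout, with HAND2 at 114 and 105 BPKM in pcDNA3 replicates A and B and 125 and 152 BPKM in cjaFOXP2 replicates A and B. GATA3 stood at 38.1 and 37.8 BPKM with pcDNA3 and 40.3 and 43.9 BPKM with cjaFOXP2. TH, the rate-limiting enzyme of catecholamine synthesis and a defining marker of the line, was listed at 0 in all 4 libraries. Markers of endothelium summed to at most 1.01 BPKM in any library over 8 genes, with PECAM1, CDH5 and VWF below 0.05 BPKM in all 10 libraries.

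The transfected gene was checked first. FOXP2, the mean over 14 transcripts, was listed at 0.0045 BPKM in pcDNA3 replicate A and at 0 in replicate B. It stood at 14.5 and 18.3 BPKM in cjaFOXP2 replicates A and B, so both libraries carried a FOXP2 transcript as labelled, and all 14 transcripts were above 1 BPKM in both cjaFOXP2 libraries. The marmoset libraries thus held similar amounts, whereas the chimpanzee libraries stood at 2.09 and 21.8 BPKM and the Rhesus libraries at 30.2 and 3.91 BPKM. The human libraries stood at 1.54 and 0.932 BPKM. Against pcDNA3 the log2 difference of the marmoset cells was 7.32 ± 1.16 (SE) on the log2(BPKM + 0.1) scale, with an adjusted p of 0.258 by limma, in which the 5 conditions share 1 estimate of the spread. With pcDNA3 at or near 0 this value is set by the pseudocount and is no bound: it was 10.40 with a pseudocount of 0.01 and 4.11 with a pseudocount of 1. Fitted on the 4 libraries alone, the adjusted p was 6.23e-05 (limma). With 2 libraries on each side, the two-sided exact permutation p was 0.333 and could not have been smaller. Against the 6 other FOXP2 libraries the marmoset level did not stand apart (exact two-sided permutation test, p = 0.5, smallest possible 0.0714). Reads from the cDNA can map to the human gene only as far as the marmoset and human sequences match, so these levels are those that the alignment to the human genome recovered.

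Few single genes separated the marmoset cells from the pcDNA3 cells once the number of genes was taken into account. Of 22238 genes tested, 1 was higher and 1 was lower at an adjusted p under 0.05 by limma (0.0045% each). These were MIR933 and DQ591726, named here after their values were seen, and both lie close to 0. MIR933, a microRNA gene inside ATF2, stood at 0.145 and 0.148 BPKM in the cjaFOXP2 libraries and was listed at 0 in both pcDNA3 libraries (adjusted p = 0.0155, limma). It stood at 0.0527 and 0.0508 BPKM with the human and 0.0813 and 0.0777 BPKM with the chimpanzee cDNA, and was listed at 0 in both Rhesus libraries. Its reads cannot be told apart from those of the transcripts it lies in. DQ591726, a sequence identifier without a gene name, stood at 0.133 and 0.133 BPKM in the pcDNA3 libraries and was listed at 0 in the other 8 (adjusted p = 0.0108, limma). It passed the filter on low values only through the pcDNA3 libraries. Values of 0 elsewhere leave DQ591726 almost no spread, and those of MIR933 were at 0 or near the pseudocount. No conclusion is drawn from either call. Neither count held in a fit with the transfection round as a block, which called 0 genes. At an unadjusted p under 0.05, 868 genes were higher (3.9%) and 1584 lower (7.12%). Both cjaFOXP2 libraries lay above both pcDNA3 libraries in 4283 genes (19.3%) and below both in 5835 (26.2%). The median log2 difference of all genes tested was -0.03. No gene described from here on passed the adjusted threshold against pcDNA3, where their adjusted p-values were 0.258 or higher (limma), and values after log2 are limma differences with their SE.

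DNA replication genes were lower throughout. All 50 members of a list of replication and G1/S genes lay below both pcDNA3 libraries in both cjaFOXP2 libraries, where 26.2% of all genes did so, and 47 of them were lower at an unadjusted p under 0.05, against a background of 7.12%. Their median log2 difference was -1.11, and single members ranged from -1.67 in MCM10, an initiation factor, to -0.45 in CHEK1, the S phase checkpoint kinase. None passed the adjusted threshold.

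The replicative helicase MCM2 to MCM7, which unwinds DNA at the fork, was lower in each of its 6 subunits. MCM6 stood at 20.6 and 15.0 BPKM in pcDNA3 replicates A and B and at 8.41 and 8.43 BPKM in the cjaFOXP2 libraries. MCM5 stood at 22.0 and 16.5 BPKM against 6.47 and 7.09 BPKM, and MCM4 at 23.1 and 15.8 BPKM against 6.69 and 7.70 BPKM. In each subunit the 2 cjaFOXP2 values were closer to each other than the 2 pcDNA3 values were, and the groups did not overlap. The log2 differences were -1.05 ± 0.20 for MCM6 (SE, adjusted p = 0.258, limma), -1.48 ± 0.34 for MCM5 and -1.40 ± 0.32 for MCM4, with a median of -1.20 over the 6 subunits.

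Proteins that load and fire the helicase were lower as well, with a median of -1.21 over 11 genes. CDC6, which loads the helicase at origins, stood at 9.65 and 7.87 BPKM with pcDNA3 and 2.83 and 3.17 BPKM with cjaFOXP2, a 2.92-fold difference of the means (log2 -1.51 ± 0.37 SE, adjusted p = 0.279, limma). ORC1, the largest subunit of the origin recognition complex, stood at 5.54 and 3.55 BPKM against 1.28 and 1.43 BPKM. CDT1, the loading partner of CDC6, stood at 6.94 and 4.73 BPKM against 2.32 and 2.52 BPKM. All 3 were thus more than 2-fold lower by their means, and their cjaFOXP2 values differed by less than their pcDNA3 values. Of the 11 genes, GINS3, a subunit of the helicase's GINS cofactor, was the exception at an unadjusted p under 0.05.

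The enzymes at the fork and those that feed it followed. PCNA, the sliding clamp that holds polymerases on DNA, stood at 54.6 and 36.8 BPKM with pcDNA3 and 18.5 and 18.4 BPKM with cjaFOXP2 (log2 -1.28 ± 0.33 SE). RRM2, the regulated subunit of ribonucleotide reductase, stood at 47.0 and 31.6 BPKM against 11.2 and 16.2 BPKM (log2 -1.52 ± 0.42 SE). TYMS, which makes thymidylate, stood at 56.2 and 31.0 BPKM against 16.0 and 22.0 BPKM (log2 -1.15 ± 0.41 SE). The 8 polymerase and primase subunits had a smaller median difference, -0.84, than the 5 genes of deoxynucleotide supply, -1.15. Among the genes of S phase entry, E2F1, a transcription factor that activates replication genes, stood at 7.85 and 5.33 BPKM against 2.37 and 2.28 BPKM, and CCNE2, a cyclin of the G1/S transition, at 4.02 and 2.70 BPKM against 1.14 and 1.23 BPKM. UHRF1, which carries DNA methylation over to the new strand, stood at 23.4 and 17.6 BPKM against 7.76 and 8.55 BPKM (log2 -1.31 ± 0.27 SE).

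Genes of mitosis were lower in the same libraries. All 56 members of a list of mitosis and G2/M genes lay below both pcDNA3 libraries in both cjaFOXP2 libraries, and 49 were lower at an unadjusted p under 0.05. Their median log2 difference was -0.84, and members ranged from -1.39 in MYBL2, a transcription factor that activates mitotic genes, to -0.36 in CDC25B, a phosphatase that activates CDK1. ANLN, a scaffold of the contractile ring, stood at 63.9 and 52.2 BPKM in pcDNA3 replicates A and B and 33.8 and 29.6 BPKM in cjaFOXP2 replicates A and B (log2 -0.86 ± 0.16 SE, adjusted p = 0.258, limma). CENPF, a protein of the outer kinetochore, stood at 36.1 and 27.4 BPKM against 18.4 and 14 BPKM (log2 -0.96 ± 0.19 SE, adjusted p = 0.258, limma). ZWINT, which links kinetochore and spindle checkpoint, stood at 22.7 and 15.3 BPKM against 8.22 and 8.37 BPKM (log2 -1.16 ± 0.25 SE).

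Within the mitotic list the kinases and the spindle checkpoint, 10 genes, had the lowest median, -1.01, and the 3 cytokinesis genes the highest, -0.64. AURKB, the kinase that corrects spindle attachments, stood at 22.9 and 13.8 BPKM against 7.64 and 8.79 BPKM, and PLK1, a kinase that drives entry into mitosis, at 39.2 and 24.2 BPKM against 13.6 and 16.1 BPKM. CDK1 itself, the kinase of mitotic entry, stood at 22.2 and 13.5 BPKM against 7.68 and 9.43 BPKM. MKI67, the proliferation marker Ki-67, stood at 25.5 and 18.5 BPKM against 14.4 and 13.6 BPKM, a smaller 1.58-fold difference of the means. The groups did not overlap in any of these 4 genes, although pcDNA3 replicate B was the nearer of the controls each time. Of 19 genes for cell cycle inhibitors, D-type cyclins and quiescence, 0 were higher and 2, CCND1 and RBL1, were lower at an unadjusted p under 0.05. These counts were near the shares of all genes, 3.9% higher and 7.12% lower, and the median of the list was 0.02. RBL1, a pocket protein that restrains E2F, stood at 3.06 and 2.48 BPKM with pcDNA3 and 1.77 and 1.63 BPKM with cjaFOXP2. CDKN1C, a CDK inhibitor, stood at 1.85 and 1.90 BPKM with pcDNA3 and 2.88 and 3.17 BPKM with cjaFOXP2 (log2 0.66 ± 0.34 SE). CCND1, cyclin D1, which drives G1 progression, stood at 50.7 and 30.4 BPKM against 14.9 and 17.4 BPKM (log2 -1.28 ± 0.49 SE). None of 24 p53 targets passed an unadjusted p of 0.05 in either direction.

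**Figure D1:**
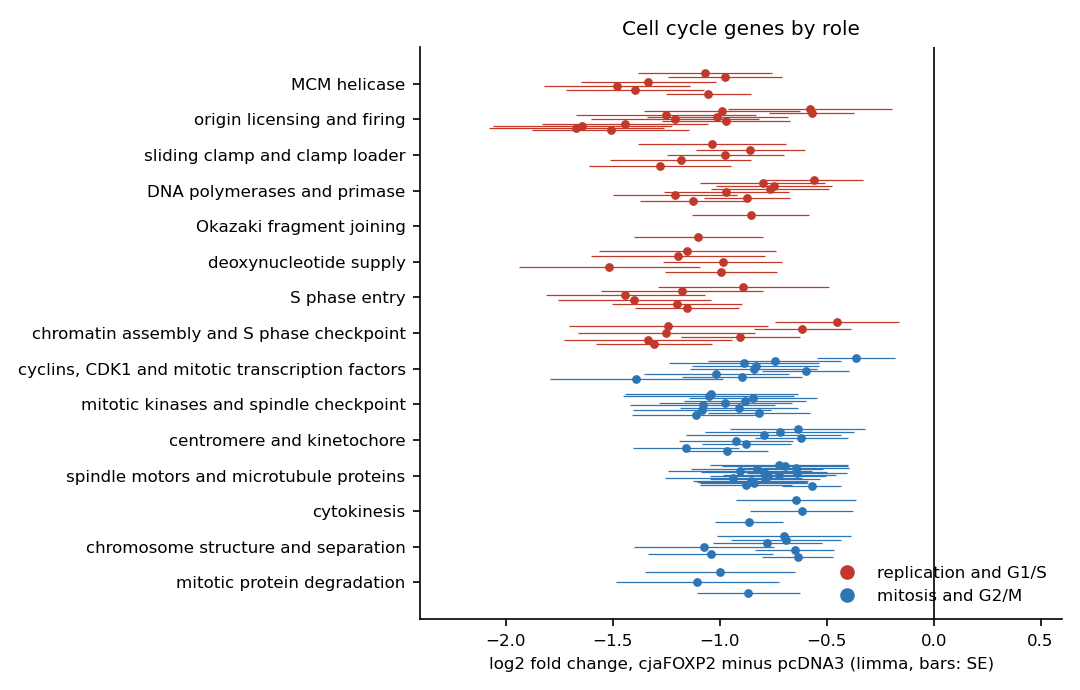
Log2 difference between cjaFOXP2 and pcDNA3 for the 50 replication and G1/S genes (red) and the 56 mitosis and G2/M genes (blue), by role. Each point is a gene, placed by its limma estimate on the log2(BPKM + 0.1) scale, with a bar of 1 SE to each side. All 106 points lie below 0, from -1.67 in MCM10 to -0.36 in CDC25B.

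Promoters are shown for 4 members of the lists and for XRCC2 and HJURP, which are among the genes with the smallest p-values, because cell cycle genes are known for short promoter elements that time their transcription. E2F proteins bind variants of one element in replication genes, CCAAT boxes bind NF-Y, and the cell cycle genes homology region (CHR) recruits the MuvB complex in mitotic genes. The windows run from 250 bases before to 50 bases after the start site in RefSeq, build GRCh38.p14, and are written 5′ to 3′ on the gene's strand. Capitals mark the CCAAT box, the CHR written TTTGAA, and the E2F element written TTTGGCGC, TTTCCCGC or TTTCGCGC, on either strand and merged where matches overlap. The first 3 windows belong to CDC6 (chr17:40287629-40287928, plus strand), MCM6 (chr2:135876394-135876693, minus strand) and XRCC2 (chr7:152676092-152676391, minus strand), which acts in recombination repair. The other 3 belong to CENPF (chr1:214602945-214603244, plus strand), ANLN (chr7:36389612-36389911, plus strand) and HJURP (chr2:233854486-233854785, minus strand), the chaperone that loads the centromeric histone CENPA.
CDC6: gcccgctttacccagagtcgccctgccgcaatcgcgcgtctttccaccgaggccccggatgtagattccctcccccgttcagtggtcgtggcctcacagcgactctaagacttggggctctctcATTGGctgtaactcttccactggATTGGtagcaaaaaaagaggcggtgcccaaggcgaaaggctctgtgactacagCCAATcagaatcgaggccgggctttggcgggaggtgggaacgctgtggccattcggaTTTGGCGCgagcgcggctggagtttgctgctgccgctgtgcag
MCM6: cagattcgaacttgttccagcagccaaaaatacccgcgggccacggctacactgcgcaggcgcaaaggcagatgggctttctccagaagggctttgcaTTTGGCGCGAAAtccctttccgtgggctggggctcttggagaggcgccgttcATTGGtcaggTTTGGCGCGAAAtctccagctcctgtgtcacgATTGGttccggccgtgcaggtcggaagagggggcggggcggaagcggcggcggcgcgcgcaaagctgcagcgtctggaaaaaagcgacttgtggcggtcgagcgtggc
XRCC2: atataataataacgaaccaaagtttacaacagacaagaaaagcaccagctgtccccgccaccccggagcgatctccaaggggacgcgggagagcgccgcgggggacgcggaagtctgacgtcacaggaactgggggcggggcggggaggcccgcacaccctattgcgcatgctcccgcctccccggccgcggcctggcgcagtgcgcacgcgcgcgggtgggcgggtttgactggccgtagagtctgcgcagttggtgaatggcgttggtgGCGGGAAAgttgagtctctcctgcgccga
CENPF: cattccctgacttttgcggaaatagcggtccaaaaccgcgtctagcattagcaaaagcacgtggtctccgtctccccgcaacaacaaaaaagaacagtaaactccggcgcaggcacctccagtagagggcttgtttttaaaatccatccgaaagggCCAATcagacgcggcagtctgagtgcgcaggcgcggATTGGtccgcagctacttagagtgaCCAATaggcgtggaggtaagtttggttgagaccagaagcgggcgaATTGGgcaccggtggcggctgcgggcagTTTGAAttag
ANLN: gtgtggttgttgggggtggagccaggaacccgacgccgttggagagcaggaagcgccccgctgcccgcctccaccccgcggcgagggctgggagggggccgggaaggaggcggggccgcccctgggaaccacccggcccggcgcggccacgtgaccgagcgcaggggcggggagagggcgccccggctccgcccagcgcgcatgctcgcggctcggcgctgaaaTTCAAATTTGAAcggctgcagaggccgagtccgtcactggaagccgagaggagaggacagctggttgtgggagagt
HJURP: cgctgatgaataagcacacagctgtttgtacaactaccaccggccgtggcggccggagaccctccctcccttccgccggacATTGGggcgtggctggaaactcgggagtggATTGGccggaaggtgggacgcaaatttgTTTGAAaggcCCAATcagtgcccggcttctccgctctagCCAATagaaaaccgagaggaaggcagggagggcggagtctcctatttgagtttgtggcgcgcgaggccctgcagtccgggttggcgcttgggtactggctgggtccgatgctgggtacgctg

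An E2F element lay in 24 of 56 windows of the replication list (42.9%, 42 of 50 genes matched) and in 2.74% of all 35116 windows. MCM6 held 4 matches that overlap in pairs, and CDC6 and XRCC2 held 1 each, downstream of the start site. The CHR lay in 38 of 59 windows of the mitotic list (64.4%, 47 of 56 genes matched) and in 15.2% of all windows, but in 1.79% of the replication windows. In ANLN a pair of CHR matches adjoined on opposite strands and pointed away from each other, and in CENPF the match lay downstream of the start site. CCAAT boxes lay in 58.9% of replication windows, 71.2% of mitotic windows and 34.6% of all windows, with 4 in CENPF and 4 in HJURP. The forkhead element TGTTTAC, searched on both strands, lay in 3.57% of the replication windows, 1.69% of the mitotic windows and 3.42% of all windows. For ATTTGT, another short sequence ascribed to FOXP2, the shares were 1.79%, 6.78% and 11.9%, and for CAAATT they were 5.36%, 15.3% and 10.7%, with CAAATT present in the ANLN and HJURP windows, where it overlaps the CHR in ANLN. A match to these letters is a description of the window and not a binding site.

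The difference in the cell cycle lists was present within each round of transfection, where the rounds are read from the replicate letters. In round A all 50 replication genes lay below pcDNA3 with a median log2 difference of -1.53, and in round B all 50 with a median of -0.77. For the mitotic genes the medians were -1.23 in round A and -0.46 in round B, again with all 56 below 0. The smaller differences of round B went with pcDNA3 replicate B, whose mean level over the replication list was -0.04 relative to the mean of the 10 libraries, against 0.49 in pcDNA3 replicate A. The marmoset libraries stood at -0.95 and -0.79 on that scale. The count of replication genes at an unadjusted p under 0.05 was 18 without pcDNA3 replicate A and 27 without cjaFOXP2 replicate A, and it was 47 and 40 without the respective B library. The count of mitotic genes was 8 without pcDNA3 replicate A, 13 without cjaFOXP2 replicate A, 55 without pcDNA3 replicate B and 32 without cjaFOXP2 replicate B. All 50 and all 56 members stayed below 0 in each of these fits. Fewer or slower cycling cells and less of these RNAs per cell cannot be told apart in bulk RNA.

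Most other housekeeping lists did not hold across the rounds. All 83 cytosolic ribosomal protein genes tested lay below pcDNA3 in round A (median -0.50), and 81 of them lay above it in round B (median 0.32). Of 76 mitochondrial ribosomal protein genes, 75 lay below in round A (median -0.59) and 53 lay above in round B (median 0.09). Nuclear genes of oxidative phosphorylation followed, with 82 of 84 below in round A and 66 of 84 above in round B. Over the 13412 genes that averaged 1 BPKM or more, the log2 differences of round A and round B, which share no library, had the same sign in 54.7% of genes and correlated at a Pearson r of 0.397 across genes, which are not independent replicates. With the cjaFOXP2 letters exchanged, so that each marmoset library was set against the pcDNA3 library of the other letter, these values were 74.1% and 0.656. The values by round rest on the cjaFOXP2 letters, and the cjaFOXP2 libraries deviated from their mean against those of the same letter in the other 4 conditions. Whether the letters of this pair were exchanged was not settled. The separation of the cell cycle genes does not depend on the letters, since both marmoset libraries lay below both pcDNA3 libraries.

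**Figure D2:**
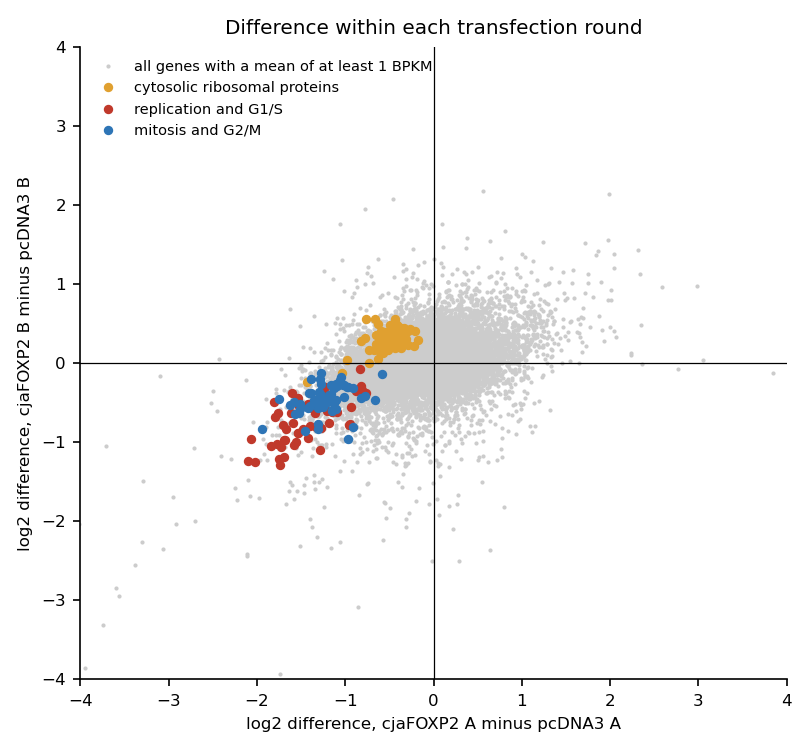
Log2 difference between cjaFOXP2 and pcDNA3 in transfection round A (x axis) and round B (y axis), on log2(BPKM + 0.1), for genes that averaged 1 BPKM or more (grey; 6 of 13412 lie outside the axes). Replication (red) and mitotic (blue) genes lie at the lower left, below 0 in both rounds, while cytosolic ribosomal protein genes (orange) lie below 0 in round A and mostly above 0 in round B.

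Among genes that supply growing cells, single members were lower and their lists were mixed. SLC7A5, the light chain of the LAT1 amino acid transporter, stood at 17.1 and 13.2 BPKM with pcDNA3 and 6.91 and 4.6 BPKM with cjaFOXP2 (log2 -1.40 ± 0.26 SE, adjusted p = 0.258, limma). PSAT1, an enzyme of serine synthesis, stood at 16.7 and 9.21 BPKM against 6.34 and 6.41 BPKM (log2 -0.95 ± 0.28 SE). MTHFD2, a mitochondrial folate enzyme, stood at 17.8 and 10.5 BPKM against 6.75 and 8.02 BPKM (log2 -0.88 ± 0.32 SE). These belong to a list of 28 genes of the ATF4 amino acid response, of which 5 were lower and 0 higher at an unadjusted p under 0.05, where 7.12% of all genes were lower and 3.9% higher. The median of the list was -0.25, and 15 of the 28 lay below pcDNA3 in both rounds of transfection. The 3 genes named make or import amino acids or use them for one-carbon units, and in each the groups did not overlap. SLC2A1, the main glucose transporter of many cell lines, stood at 23.1 and 22.5 BPKM against 15.2 and 12.5 BPKM (log2 -0.72 ± 0.19 SE), but with 3 of 31 genes of glycolysis and hypoxia lower at that threshold and 0 higher, the list's share was near that of all genes (7.12% lower). TFRC, the transferrin receptor through which cells take up iron, stood at 82.3 and 74.9 BPKM against 50.3 and 44.3 BPKM (log2 -0.73 ± 0.14 SE, adjusted p = 0.258, limma). MYC, a transcription factor of growth genes, stood at 8.02 and 4.71 BPKM against 2.33 and 3.11 BPKM (log2 -1.16 ± 0.45 SE).

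Actin and YAP-related genes lay on the lower side too, in fewer members. Of 22 targets of serum response factor and actin genes, 3 were lower and 0 higher at an unadjusted p under 0.05, where 7.12% of all genes were lower and 3.9% higher, with a median of -0.37. TAGLN, an actin-binding protein of contractile cells, stood at 79.1 and 41.3 BPKM with pcDNA3 and 19.1 and 24.7 BPKM with cjaFOXP2 (log2 -1.39 ± 0.39 SE). Of 22 targets of YAP and TEAD, 4 were lower and 0 higher against the same shares, with a median of -0.25, among them NUAK2, a kinase, at 2.13 and 1.30 BPKM against 0.760 and 0.563 BPKM. The lower side was shared with the human cDNA, whose medians against the same pcDNA3 libraries were -0.30 for the actin list and -0.47 for the YAP list. They were 0.11 and 0.15 with the chimpanzee and 0.04 and -0.02 with the Rhesus cDNA.

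Some genes of the noradrenergic secretory phenotype were lower with large folds but from low levels. CHGA, chromogranin A of dense-core vesicles, stood at 10.1 and 6.00 BPKM in pcDNA3 replicates A and B and 0.559 and 0.321 BPKM in cjaFOXP2 replicates A and B (log2 -3.90 ± 0.69 SE, adjusted p = 0.258, limma). GCH1, the entry enzyme for the cofactor of TH, stood at 1.15 and 0.933 BPKM against 0.333 and 0.389 BPKM (log2 -1.31 ± 0.22 SE). DBH, which makes noradrenaline, stood at 4.15 and 1.79 BPKM against 0.702 and 0.740 BPKM (log2 -1.79 ± 0.52 SE). The groups did not overlap in any of these 3 genes. DDC, which makes dopamine, stood at 1.57 and 0.643 BPKM against 0.0926 and 0.0510 BPKM, and ADRA2C, an inhibitory adrenergic receptor, at 0.504 and 0.245 BPKM against 0.0215 and 0 BPKM. In all, 7 of 19 genes of catecholamine handling, 5 of 19 granin and neuropeptide genes, 8 of 23 adrenergic identity genes and 6 of 38 synaptic genes were lower at an unadjusted p under 0.05, and 0 of each list were higher, against 7.12% and 3.9% of all genes. Median log2 differences were -0.16, -0.15, -0.31 and -0.17. By replicate letter A and B, they were -0.47 and -0.17 for catecholamine handling and 0 and -0.40 for granins and neuropeptides. For adrenergic identity they were -0.73 and -0.04, with 11 of 23 genes above 0 in B, and for synaptic genes -0.29 and -0.13. CHGB, another granin, stood at 3.87 and 3.56 BPKM against 3.41 and 2.24 BPKM (log2 -0.41 ± 0.31 SE).

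CHGA, DBH and GCH1 were also lower by their log2 differences in the other FOXP2 conditions, which were compared with the same pcDNA3 libraries. For CHGA the log2 differences from pcDNA3 were -1.85 with the human, -3.16 with the chimpanzee and -4.03 with the Rhesus cDNA, and its log2 difference between the marmoset and the other FOXP2 libraries was -0.89 ± 0.56 (SE, adjusted p = 0.484, limma). For DBH the latter was -0.04 ± 0.43 (SE), and hsaFOXP2 replicate B, at 2.33 BPKM, lay above pcDNA3 replicate B, at 1.79 BPKM. GCH1 was lower in both marmoset libraries than in all 6 other FOXP2 libraries, at 0.525 to 0.711 BPKM (log2 -0.60 ± 0.18 SE). Among the transcription factors of the noradrenergic state, HAND2, which acts in sympathetic neurons, was at 125 and 152 BPKM in the cjaFOXP2 libraries and at 84.7 to 114 BPKM in the other FOXP2 libraries (log2 0.54 ± 0.13 SE). Both marmoset libraries were the highest of the 10 for HAND2.

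**Figure D3:**
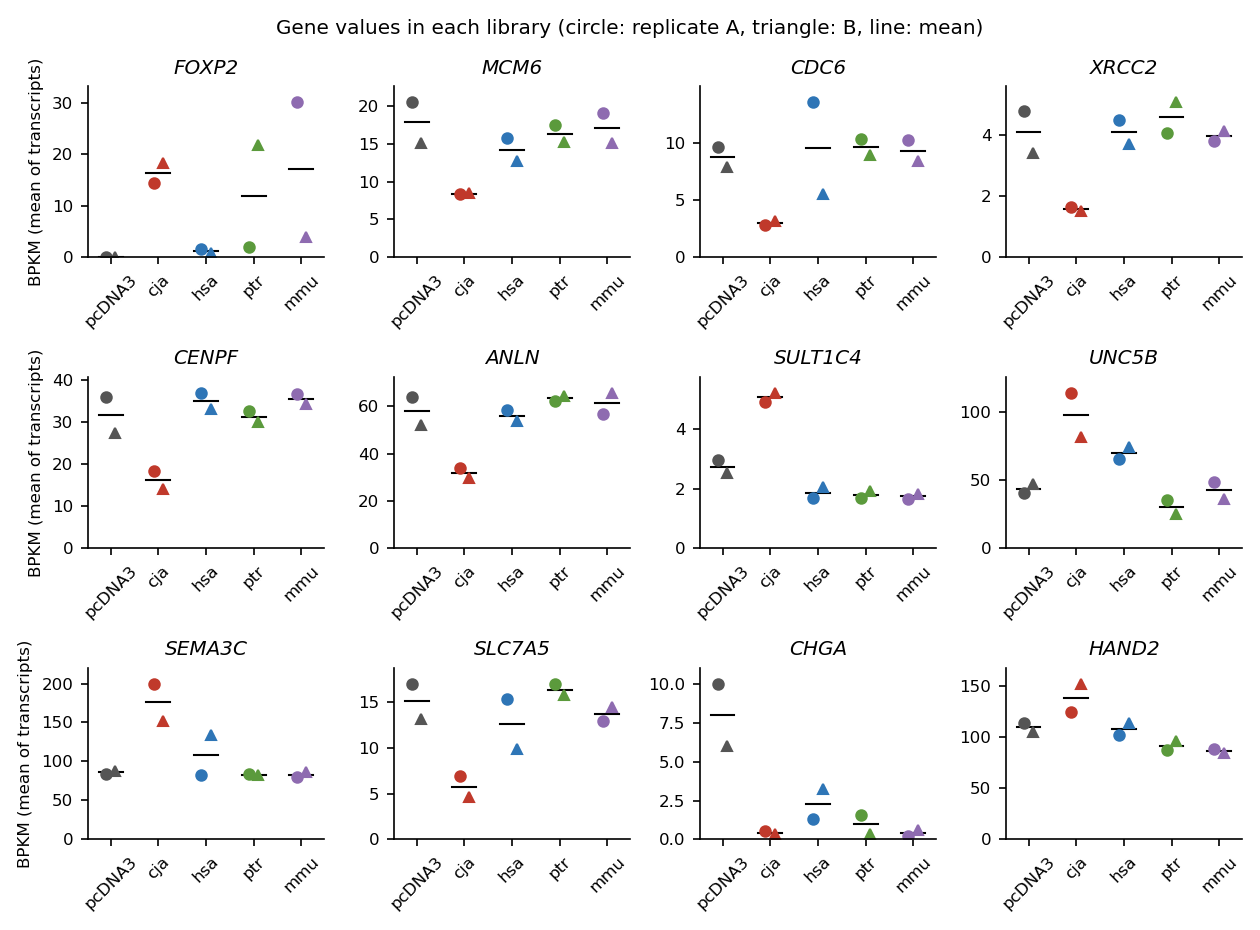
BPKM of 12 genes in each library, with replicate A as a circle, replicate B as a triangle and the mean of each condition as a line (linear axes from 0). MCM6, CDC6, XRCC2, CENPF, ANLN and SLC7A5 were lowest in the 2 cjaFOXP2 libraries, SULT1C4, UNC5B, SEMA3C and HAND2 were highest there, and CHGA was below pcDNA3 in all FOXP2 conditions.

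Axon guidance genes included both higher and lower members. Of 54 tested, 7 were higher and 2 lower at an unadjusted p under 0.05 against backgrounds of 3.9% and 7.12%, with a median of 0.06. UNC5B, a netrin receptor, stood at 40.7 and 47.0 BPKM with pcDNA3 and 114 and 81.5 BPKM with cjaFOXP2 (log2 1.14 ± 0.25 SE, adjusted p = 0.267, limma). SEMA3C, a secreted semaphorin, stood at 83.9 and 88.1 BPKM against 200 and 152 BPKM (log2 1.02 ± 0.24 SE). SEMA6C, a membrane semaphorin, stood at 4.63 and 7.03 BPKM against 11.7 and 10.9 BPKM (log2 0.97 ± 0.26 SE). Each of these 3 was higher in both marmoset libraries, with cjaFOXP2 replicate A the highest. The list as a whole turned between the rounds, with 38 of 54 above 0 in round A (median 0.27) and 32 of 54 below 0 in round B (median -0.08). Against the other FOXP2 libraries, 10 of the 54 were higher at an unadjusted p under 0.05 (7.5% of all genes) and 8 lay above all 6 (7.36%). UNC5A, a related receptor at low level, went the other way, with 0.945 and 0.600 BPKM in the pcDNA3 libraries and 0.0566 and 0.0427 BPKM in the cjaFOXP2 libraries (log2 -2.52 ± 0.46 SE).

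Interferon-response genes were higher in a minority of members. Of 33 tested, 5 were higher and 0 lower at an unadjusted p under 0.05, where 3.9% of all genes were higher and 7.12% lower, and the median was 0.32. IFI44L stood at 0.483 and 0.490 BPKM with pcDNA3 and 0.978 and 1.07 BPKM with cjaFOXP2 (log2 0.93 ± 0.21 SE). IRF9, the DNA-binding subunit of the complex that interferon activates, stood at 9.30 and 11 BPKM against 14 and 15.6 BPKM (log2 0.54 ± 0.18 SE). BST2, the interferon-induced tetherin, is not among the 33 listed genes. It stood at 0.671 and 1.20 BPKM against 4.55 and 2.45 BPKM (log2 1.78 ± 0.39 SE). IFI30, a lysosomal thiol reductase induced by interferon, stood at 8.03 and 7.93 BPKM against 14.3 and 14.5 BPKM (log2 0.85 ± 0.18 SE). In all 4 genes both cjaFOXP2 libraries lay above both pcDNA3 libraries. For the 33 genes, the median was 0.36 in round A and 0.17 in round B.

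Among the genes with the smallest p-values on the higher side, SULT1C4, a cytosolic sulfotransferase, stood at 2.95 and 2.52 BPKM with pcDNA3 and 4.89 and 5.21 BPKM with cjaFOXP2 (log2 0.86 ± 0.16 SE, adjusted p = 0.258, limma). SOCS6, an adaptor that restrains receptor tyrosine kinases, stood at 8.86 and 7.77 BPKM against 13.9 and 13.7 BPKM (log2 0.73 ± 0.14 SE). ADD3, an adducin of the membrane skeleton, stood at 13.1 and 14 BPKM against 20.8 and 23.7 BPKM (log2 0.71 ± 0.14 SE). RGS9, a GTPase-activating protein for G protein subunits in photoreceptors and striatal neurons, had the largest fold of this group after FOXP2, with 0.452 and 0.696 BPKM against 2.68 and 2.32 BPKM, a 4.36-fold difference of the means (log2 1.97 ± 0.39 SE). SESN3, a sestrin that dampens mTORC1 signalling, stood at 5.61 and 4.55 BPKM against 7.90 and 8.68 BPKM (log2 0.70 ± 0.14 SE). VMO1, PRAP1, ZFP2 and C11orf35 (now LMNTD2) were also higher, by log2 differences of 1.32, 1.60, 1.22 and 1.32. With the human cDNA the log2 differences from the same pcDNA3 libraries were 0.90 for SESN3, 0.97 for PRAP1 and 0.69 for VMO1. They were 0.26 for ADD3 and 0.29 for C11orf35, and below 0 for SULT1C4, SOCS6, RGS9 and ZFP2. Within this group MIR4758 and MIR3918 lie inside LAMA5 and SYTL3, and their reads cannot be told apart from those of the transcripts they lie in.

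On the lower side, outside the lists above, ADRBK2, the G protein-coupled receptor kinase GRK3, stood at 2.28 and 1.49 BPKM with pcDNA3 and 0.405 and 0.379 BPKM with cjaFOXP2 (log2 -1.98 ± 0.28 SE). GNG4, a G protein gamma subunit, stood at 2.44 and 1.23 BPKM against 0.327 and 0.392 BPKM (log2 -2.01 ± 0.33 SE). Both were also lower in the other FOXP2 conditions, with log2 differences from the same pcDNA3 libraries of -0.56 to -0.98 for ADRBK2 and -0.84 to -1.42 for GNG4. The others were tied to the cell cycle or to DNA repair. XRCC2 stood at 4.78 and 3.42 BPKM against 1.63 and 1.5 BPKM (log2 -1.32 ± 0.20 SE, adjusted p = 0.258, limma). PKMYT1, the kinase that holds CDK1 inactive, stood at 12.4 and 10.8 BPKM against 4.81 and 3.95 BPKM (log2 -1.39 ± 0.22 SE). FANCA, of the Fanconi anaemia core complex, stood at 5.58 and 5.02 BPKM against 2.66 and 2.80 BPKM (log2 -0.93 ± 0.16 SE). CDCA7, a MYC and E2F target, stood at 12.7 and 9.44 BPKM against 5.88 and 5.27 BPKM (log2 -0.97 ± 0.17 SE). In each of these 4 genes the higher marmoset value was below the lower pcDNA3 value. MIR3658 and SNORA16A, also lower, lie inside UCK2 and SNHG12 and are uncertain for the same reason as the microRNAs above.

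The cell cycle genes also set the marmoset libraries apart from the other FOXP2 libraries. Against the mean of the human, chimpanzee and Rhesus conditions, all 56 mitotic genes and 47 of 50 replication genes lay below all 6 libraries in both marmoset libraries, where 9.09% of all genes did so. At an unadjusted p under 0.05, 56 and 48 were lower against a background of 8.62%, and the medians were -0.92 and -1.07. The exceptions to the separation were PRIM2, SLBP and GINS3, in each of which only hsaFOXP2 replicate B, of the 6, lay below a marmoset library. CENPF stood at 29.96 to 37.1 BPKM over the 6 libraries (median 33.7) against 18.4 and 14 BPKM (log2 -1.07 ± 0.15 SE, adjusted p = 0.134, limma). CDC6 stood at 5.54 to 13.6 BPKM (median 9.57) against 2.83 and 3.17 BPKM (log2 -1.58 ± 0.30 SE, adjusted p = 0.145, limma). The medians of the replication list against the shared pcDNA3 libraries were -0.08 with the human, -0.02 with the chimpanzee and 0.07 with the Rhesus cDNA. Those of the mitotic list were 0.10, -0.03 and 0.14.

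**Figure D4:**
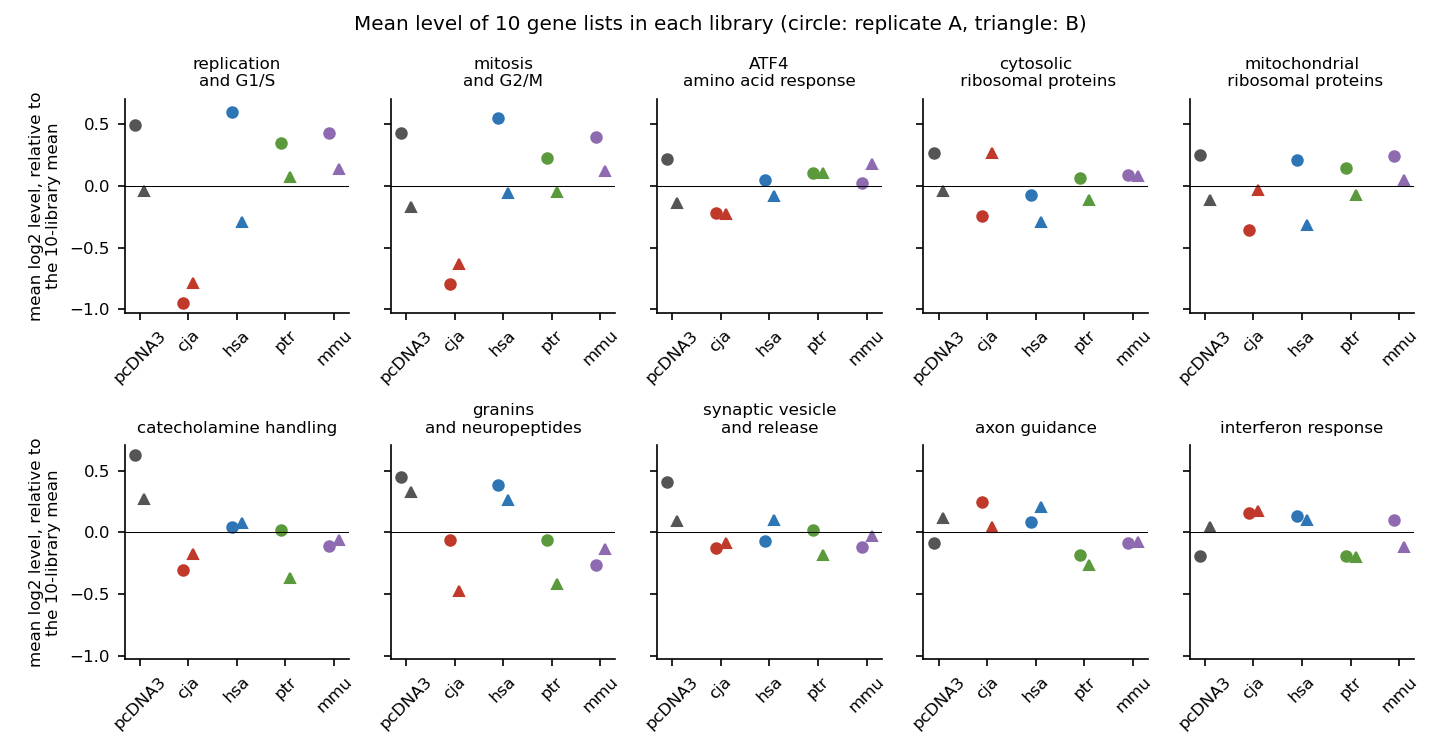
Mean level of 10 gene lists in each library, as the mean over members of log2(BPKM + 0.1) relative to the gene's mean over the 10 libraries (circles, replicate A; triangles, replicate B). The replication list stood at -0.95 and -0.79 in the cjaFOXP2 libraries and at -0.29 or above in the 8 others, while the 2 cjaFOXP2 libraries stood on opposite sides of 0 for cytosolic ribosomal proteins.

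None of the 22238 genes passed the adjusted threshold in this comparison, although 3585 did at an unadjusted p under 0.05 (16.1%), and this depended on a single library more than on any other. Without hsaFOXP2 replicate B, limma called 693 genes higher and 773 lower at an adjusted p under 0.05 among 22088 genes, and the latter included 44 of 50 replication genes and 45 of 56 mitotic genes. That library stood at -0.29 in the mean replication level and was the lowest of the 8 libraries outside the marmoset condition. Leaving out the other libraries in turn gave at most 3 genes. SULT1C4 came nearest to the threshold among the genes named here, with 1.66 to 2.04 BPKM over the 6 libraries against 4.89 and 5.21 BPKM (log2 1.44 ± 0.13 SE, adjusted p = 0.0677, limma). Both pcDNA3 libraries, at 2.95 and 2.52 BPKM, also lay above all 6.

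Other genes set the marmoset libraries apart from the other FOXP2 libraries in the same direction as from pcDNA3. TFRC stood at 74.2 to 101 BPKM over the 6 libraries against 50.3 and 44.3 BPKM (log2 -0.87 ± 0.11 SE, adjusted p = 0.134, limma). SLC7A5 stood at 9.93 to 17.0 BPKM against 6.91 and 4.6 BPKM (log2 -1.30 ± 0.22 SE). UNC5B stood at 25.1 to 74.5 BPKM against 114 and 81.5 BPKM (log2 1.12 ± 0.20 SE). The groups did not overlap in any of these 3. BEGAIN, a postsynaptic scaffold protein, THBS4, a thrombospondin of the matrix, RPS6KA5, the kinase MSK1, and MFSD6, a transporter-like protein, were higher in the marmoset libraries, at an unadjusted p under 0.05, by log2 differences of 1.52, 1.19, 1.14 and 0.81. For BEGAIN and RPS6KA5 both pcDNA3 libraries also lay above all 6, and the log2 differences from pcDNA3 were 0.63 and 0.78. KIF20B, a mitotic kinesin, FAM111B, a protease of S phase cells, and HJURP were lower at that threshold, by log2 differences of -0.90, -1.41 and -1.09.

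Of the 13 genes that the study singled out as new FOXP2 targets, which it chose on these libraries by their levels under the human cDNA, 0 were higher and 1 was lower than in pcDNA3 at an unadjusted p under 0.05, near the 3.9% and 7.12% of all genes. MSN, the membrane-actin linker moesin, stood at 57.1 and 44.1 BPKM with pcDNA3 and 70.1 and 68.9 BPKM with cjaFOXP2 (log2 0.47 ± 0.31 SE), while the human libraries stood at 2.80 and 1.68 BPKM. PTPRQ, a receptor-type phosphatase, was the lower one, at 0.103 and 0.0707 BPKM against 0.0245 and 0.0271 BPKM. BACE2, a beta-secretase relative, stood at 3.16 and 2.44 BPKM against 1.38 and 2.25 BPKM (log2 -0.63 ± 0.64 SE), and TMEM200A, a membrane protein, at 7.91 and 11.1 BPKM against 4.37 and 3.41 BPKM (log2 -1.25 ± 0.94 SE). Of 27 targets that the study took over from earlier work, 1 was higher and 2 were lower at an unadjusted p under 0.05, again near the shares of all genes.

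Markers of other cell types moved with the marmoset condition in part. The summed level of 10 fibroblast markers was 1126 to 1398 BPKM in the cjaFOXP2 libraries, 712 to 1049 BPKM with pcDNA3 and 603 to 1632 BPKM in the other FOXP2 libraries, and 0 of 9 tested passed an unadjusted p of 0.05 against pcDNA3. Against the other FOXP2 libraries all 9 were above 0 with a median log2 difference of 0.71, and 3 were higher at an unadjusted p under 0.05, where 7.5% of all genes were. That of 11 Schwann cell and glial markers was 82.2 to 98.9 BPKM against 51.0 to 54.8 BPKM and 41.1 to 141 BPKM, carried by PMP22, a myelin protein that fibroblasts also express, while SOX10, which defines Schwann cells, stayed below 0.05 BPKM in all libraries. Of the 8 tested, 0 passed against pcDNA3, while 3 were higher than in the other FOXP2 libraries at that threshold and 5 lay above all 6 (7.36% of all genes), with a median of 0.68. Epithelial markers summed to 97.8 to 119 BPKM against 168 to 222 BPKM, carried by KRT18 and KRT8, while CDH1 was below 0.05 BPKM in all libraries. Immune markers summed to 9.90 to 19.4 BPKM against 11.2 to 11.8 BPKM. Their part in the cell cycle difference was not tested.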

How the data were processed

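The authors aligned paired reads of polyadenylated RNA to hg19 with STAR, counted bases over the exons of UCSC transcripts and deposited BPKM, an RPKM computed on bases, for each of 80922 transcripts in 10 libraries. The sources used here do not say whether reads were counted by strand, so overlapping and antisense genes cannot be told apart. No counts were used, so absolute depth is unknown and no counting interval is given. Transcripts without a known symbol, 2 of the 80922 (0.0025%), were left out.

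Transcripts were averaged per symbol (27992 symbols). Genes above 0 in at least 2 libraries (22238) were tested on log2(BPKM + 0.1) with limma 3.58.1 in R 4.3.3, as 1 fit of 5 conditions over 10 libraries with trend and robust moderation, 5 residual degrees of freedom and Benjamini-Hochberg adjustment over all genes, with an adjusted p of 0.05 as the threshold. FOXP2 was also tested by exact permutation (scipy 1.17.1), and figures were drawn with matplotlib 3.10.9. The fit was tested on simulated data. Contrasts were cjaFOXP2 against pcDNA3 and against the mean of the other FOXP2 conditions.

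Named genes were FOXP2, up to 12 higher and 12 lower genes per contrast with the smallest p, no overlap between groups and 1 BPKM or more in the mean of the higher group, up to 4 genes per list by p, and study targets. Further list members were named for their roles, and a few genes are not reported here. The members and the gene lists were chosen with earlier results of these data known. Replicate letters were read as transfection rounds that pair the libraries. Deviations of the cjaFOXP2 libraries from their mean correlated at -0.334 with those of pcDNA3 and at -0.271 to -0.058 with the others. The remaining pairs gave 0.191 to 0.506, so the cjaFOXP2 letters did not follow the others and their pairing is not settled. Alternatives were 2 other pseudocounts, other filters, sums over transcripts, median-ratio scaling, plain moderation, fits on the compared libraries, the replicate block and leaving out each library.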

Additional observations from a re-analysis of the deposited data

How the results depend on the processing

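All 50 replication genes and all 56 mitotic genes stayed below 0 against pcDNA3 under each alternative run, while the adjusted calls over all genes depended on the settings. Against pcDNA3 the main counts of 1 higher and 1 lower became 2 higher with a pseudocount of 1, 10 and 10 with no filter, 0 and 0 among genes of at least 1 BPKM or on summed transcripts, and 19 and 37 on the compared libraries alone, where FOXP2 kept its log2 difference of 7.32 with an adjusted p of 6.23e-05 (limma). With the replicate block the counts were 0 and 0, and 3020 genes against 2452 reached an unadjusted p under 0.05. Leaving out single libraries gave 0 to 3 higher and 0 to 1 lower, FOXP2 level differences of 7.16 to 7.49, and 18 to 47 replication and 8 to 55 mitotic genes lower at an unadjusted p under 0.05. The median of the mitotic list was -0.54 without pcDNA3 replicate A and -1.14 without pcDNA3 replicate B. Against the other FOXP2 conditions the main counts of 0 and 0 became 7 higher with a pseudocount of 1 and 16 and 14 with no filter, and 4200 genes against 3585 reached an unadjusted p under 0.05 with the replicate block, which made no adjusted call. Leaving out single libraries gave 0 to 693 higher and 0 to 773 lower, and 34 to 50 replication and 37 to 56 mitotic genes at an unadjusted p under 0.05. A block that crosses the letters of the cjaFOXP2 libraries, chosen after seeing the data, gave 0 and 0 calls against pcDNA3 and 196 and 565 against the other FOXP2 conditions. The causes of these shifts were not tested. Median-ratio scaling moved the median of all genes by less than 0.1, from -0.03 to 0.0008. With 2 libraries per condition and 5 residual degrees of freedom, small differences were not detectable, and low genes depend on the pseudocount.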

Other observations

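Further gene lists differed in the marmoset cells. A list of 31 genes of homologous recombination and Fanconi anaemia repair, drawn up after values were seen, had 17 members lower and 0 higher than in pcDNA3 at an unadjusted p under 0.05, where 7.12% and 3.9% of all genes were, with a median log2 difference of -0.59. BRIP1, a helicase of crosslink repair, stood at 3.22 and 2.92 BPKM in pcDNA3 replicates A and B and 1.59 and 1.58 BPKM in the cjaFOXP2 libraries, and RAD54L, a motor protein of strand exchange, at 7.33 and 4.74 BPKM against 2.36 and 2.51 BPKM. A list of 36 ribosome biogenesis genes, drawn up in the same way, had 18 lower and 0 higher with a median of -0.61. NOP56, of the box C/D particles that modify ribosomal RNA, stood at 52.1 and 44.6 BPKM against 27.5 and 26.9 BPKM, and GNL3, a nucleolar GTPase, at 34.2 and 26.7 BPKM against 17.7 and 19.2 BPKM. No member of either list passed the adjusted threshold. Within the last list of this kind, 15 genes of iron handling, TFRC was the lower member, whereas SLC40A1, the iron exporter ferroportin, stood at 2.11 and 1.84 BPKM against 3.41 and 3.59 BPKM (log2 0.80 ± 0.29 SE) and FTL, the light chain of the iron store ferritin, at 190 and 172 BPKM against 214 and 325 BPKM (log2 0.55 ± 0.21 SE).

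Regulators of neural and growth signalling differed in single members. ID4, an inhibitor of helix-loop-helix transcription factors, stood at 1.90 and 1.93 BPKM against 0.954 and 1.02 BPKM (log2 -0.89 ± 0.19 SE). SPRY1, which restrains ERK signalling, stood at 7.18 and 9.75 BPKM against 15.5 and 15.5 BPKM (log2 0.88 ± 0.35 SE), and FOSL1, a transcription factor that ERK signalling stabilises, at 32.7 and 16.9 BPKM against 8.78 and 10.0 BPKM (log2 -1.32 ± 0.56 SE). COL11A1, a fibrillar collagen, stood at 10.4 and 10.9 BPKM against 17.1 and 14.3 BPKM (log2 0.55 ± 0.14 SE), with 1 of 30 collagen and matrix genes higher and 0 lower at an unadjusted p under 0.05, near or below the 3.9% and 7.12% of all genes. Of 22 Notch pathway genes, 3 were higher and 3 lower at that threshold. Of 63 replication-dependent histone genes, 1 was higher and 3 were lower, below both shares, with a median of 0, but histone mRNAs mostly lack the poly(A) tail on which the libraries were selected. SNHG1, a host of small nucleolar RNAs, was the lower of 7 nuclear-retained and RNA quality transcripts, at 26.8 and 26.4 BPKM against 17.3 and 15.5 BPKM (log2 -0.69 ± 0.20 SE), while MALAT1 stood at 23.4 and 43.9 BPKM against 39.6 and 41.6 BPKM. None of these passed the adjusted threshold.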
